A study of Homo sapiens with 2 samples.

Results

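Ribosomal protein pseudogenes are copies of ribosomal protein genes scattered over the genome, and nearly all of them arose when a spliced ribosomal protein mRNA was reverse-transcribed and inserted elsewhere. They were taken here as the listed genes whose symbol is that of a ribosomal protein gene followed by the letter P and a number. They were chosen by their measured values, namely a mean CPM (tag counts scaled to the size of the library) of at least 0.2 over both libraries. Of 16424 listed genes, 128 had such a symbol and 64 of these reached the mean. RPS19BP1, at 246 and 249.8 CPM, is a coding gene whose name has the same form, so it was set aside. This left 63 pseudogenes of 39 parent genes, out of 127 listed pseudogenes. Of the other 64 pseudogenes, 55 were at 0 in both libraries and 9 lay below the mean. Each member was set beside its parent gene, taken as the coding gene that its symbol names.

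Ribosomal proteins build the large (RPL) and small (RPS) subunits of the ribosome and are needed in nearly equal numbers in every growing cell. Their mRNAs start with a tract of pyrimidines, the terminal oligopyrimidine (TOP) motif, through which mTOR signalling controls their translation. Retrocopies of such short and abundant mRNAs are the most numerous class of processed pseudogenes in the human genome, and most lack a promoter of their own.

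The cells were PLC/PRF/5, a human hepatoma line. Cap analysis of gene expression (CAGE) counts tags at the 5′ ends of capped RNAs, 1 tag per RNA end, so levels of different genes were compared without division by length. One library came from non-treated cells (0 µg/ml) and 1 from cells treated for 6 h with 3 µg/ml M2BPGi, a glycan isomer of Mac-2-binding protein, so differences between the 2 libraries could not be checked in replicates. By estimate, the libraries held 24040209 and 24862941 tags, of which 22630317 and 23471991 were on listed genes. These tag numbers, and those of single genes below, were estimated from the rounded CPM.

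Within the list, levels spanned 4 orders of magnitude. Median levels of the members were 7.65 CPM without and 11.3 CPM with treatment, and single values ran from 0.04 to 1178 CPM and from 0.40 to 1699.7 CPM. A mean of at least 1 CPM was reached by 57 members, 10 CPM by 29, 100 CPM by 17 and 1000 CPM by 4. Summed, the members had 9272 CPM without and 12221 CPM with treatment, 0.985% and 1.29% of the CPM on listed genes. The 12 members with the highest mean carried 88.7% and 84.5% of these sums. A tag from bases that a pseudogene and its parent share fits both places, and how such tags were counted is not given in the sources used here. RNA from the copy and RNA from the parent therefore cannot be told apart by these values where the sequences are the same.

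**Figure D1:**
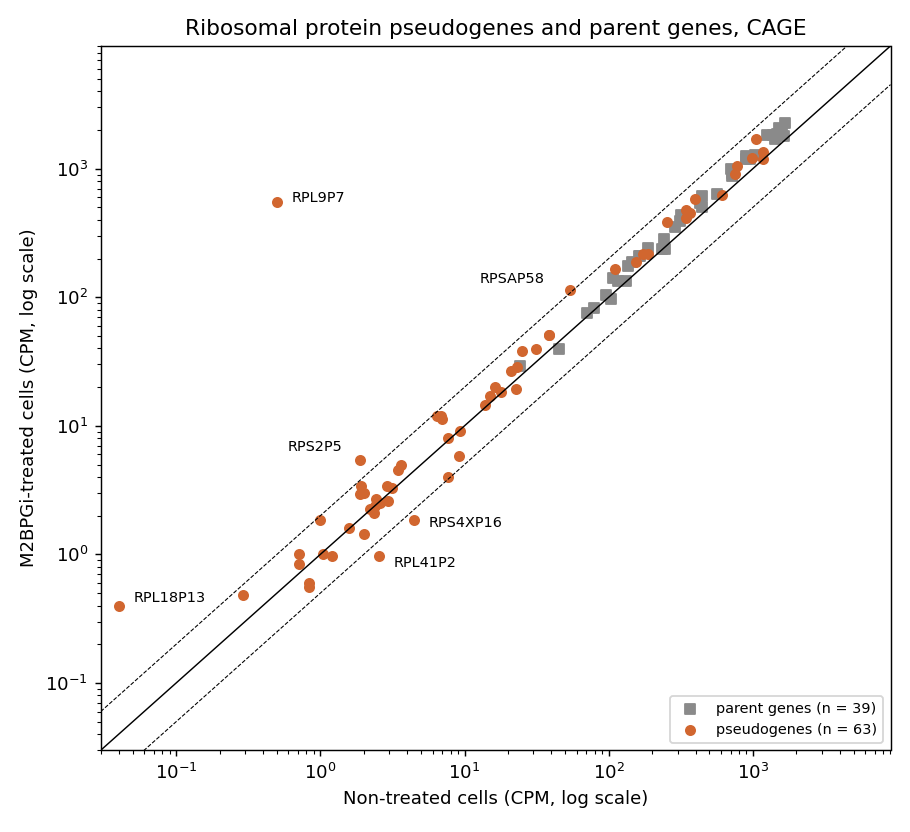
CPM of the 63 pseudogenes (orange) and their 39 parent genes (grey) in non-treated (horizontal) and M2BPGi-treated cells (vertical), both on log scales, with the line of equal values and dashed lines at 2-fold. Most points lie close to equal values, while RPL9P7 stands far above the line at 0.50 and 549 CPM.

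Among copies of large-subunit genes, RPL37AP1 had 1175 CPM without and 1351 CPM with treatment. Its parent RPL37A, the gene of a zinc-finger protein of the large subunit, had 247 and 238 CPM. The ratio of treated to non-treated was 1.15 for the copy, with a log2 tag ratio between 0.18 and 0.22. Such intervals are 95% Clopper-Pearson intervals and cover counting error only. RPL37AP1 lies inside no other gene of its strand, at chr20:44466564-44466842 on the minus strand. Its bases differ from those of its parent more than those of most other members at this level, at 95.7% identity over the coding sequence, and the first 90 bases of both show this. Capitals mark the 3 bases in which RPL37AP1 differs.

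RPL37AP1: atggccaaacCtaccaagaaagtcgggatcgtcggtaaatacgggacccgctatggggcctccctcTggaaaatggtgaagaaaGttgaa
RPL37A: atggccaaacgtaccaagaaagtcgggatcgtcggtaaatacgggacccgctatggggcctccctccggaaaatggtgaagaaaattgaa

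RPL14P1, the copy of another large-subunit gene, had 979 and 1212 CPM against 135 and 174 CPM for RPL14. For RPL13P12 the values were 756 and 911 CPM against 288 and 353 CPM for RPL13. RPL4P4 had 607 and 626 CPM while RPL4, whose protein reaches into the peptide exit tunnel, had 70.6 and 75.1 CPM. These 3 copies exceeded their parents in both libraries. RPL10AP6 was closer to its parent, with 342 and 416 CPM against 244 and 284 CPM for RPL10A.

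By ratio of CPM, RPL39P3 was the member furthest above its parent in non-treated cells. It had 344 CPM without and 474 CPM with treatment, while RPL39, which encodes a small protein that lines the exit tunnel, had 24.1 and 28.96 CPM. The copy lies at chr6:73373108-73373263 on the minus strand, inside OOEP, an oocyte-expressed gene with 18.01 and 17.5 CPM. Its 156 bases are 100% identical to the coding sequence of RPL39, so the first 90 bases stand for both genes and hold no capitals.

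RPL39P3: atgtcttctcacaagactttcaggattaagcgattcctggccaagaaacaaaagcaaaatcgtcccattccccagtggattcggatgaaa

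Among copies of small-subunit genes, RPS2P46 was highest, with 1178 CPM without and 1179.8 CPM with treatment. RPS2, whose protein sits near the mRNA entry channel, had 103 and 96.3 CPM. Among the 12 highest members, RPS2P46 alone had a tag ratio interval that held 0 (-0.02 to 0.03). It is at chr17:19445970-19446852 on the minus strand, and its identity to the RPS2 coding sequence was 98.6%. Capitals mark the 2 bases in which its first 90 bases differ.

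RPS2P46: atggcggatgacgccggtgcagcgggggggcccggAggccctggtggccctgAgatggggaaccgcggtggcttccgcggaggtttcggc
RPS2: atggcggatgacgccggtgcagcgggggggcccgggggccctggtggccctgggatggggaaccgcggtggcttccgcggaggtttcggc

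RPS18P12 had 778 and 1043 CPM against 131 and 133 CPM for RPS18, a protein of the small-subunit head. Both of the next copies, also among the 12 highest members, lay below their parents. RPS27AP1 had 396 and 581 CPM, while RPS27A, which encodes ubiquitin fused to a ribosomal protein, had 897 and 1252 CPM. RPS14P3 had 252 and 385 CPM against 1261 and 1832 CPM for RPS14, a platform protein of the small subunit.

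In each library, 12 of the 63 members had a CPM above that of their parent. Over all members and parents, the pseudogenes took 28.7% of the family CPM in non-treated and 29.5% in treated cells, since the 39 parents summed to 22979 and 29149 CPM. The order of the libraries turned without RPL9P7 (28.7% and 28.6%) and without the 16 members inside other genes, of which RPL9P7 is 1 (21.2% and 20.7%). The median share over the 39 families was far smaller, at 8.38% and 8.97%. In non-treated cells, 12 families had at least 50% of their CPM on the members, with listed copies under other names left out. With those copies, RPL32 (5.93% by its member) and RPL7 (8.84%) had 87.6% and 77.9%. Among the highest shares were 93.5% for RPL39 (92.9 to 94.0), 92.0% for RPS2 (91.6 to 92.3), 89.6% for RPL4 (89.1 to 90.05) and 87.9% for RPL14 (87.5 to 88.3). RPL26 was the lowest of the 12, at 50.04% in non-treated and 47.2% in treated cells (57.9% and 56.0% with copies under other names). RPL9 took its place in treated cells with 87.0%.

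The 12 families with such shares had parents at low levels, which the choice by share favours, since the parent's CPM is part of the share. Their parent genes had a median of 123 CPM in non-treated cells, from 24.1 to 288 CPM, while the parents of the other 27 families had a median of 719 CPM. When parent and pseudogenes were added up, the medians were close, at 793 and 724 CPM. Treated cells gave 137 and 929.7 CPM for the parents alone and 939 and 933 CPM for the sums. In the families with most members, the shares ranged widely. RPS26, with 4 members, had a share of 24.5% and 26.1%, RPS7, with 3, of 2.82% and 2.92%, and RPL31, also with 3, of 0.287% and 0.270%. RPS2, whose share was 92.0% and 92.5%, had 3 members, of which RPS2P46 alone accounted for nearly the whole of the 1181 CPM.

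**Figure D2:**
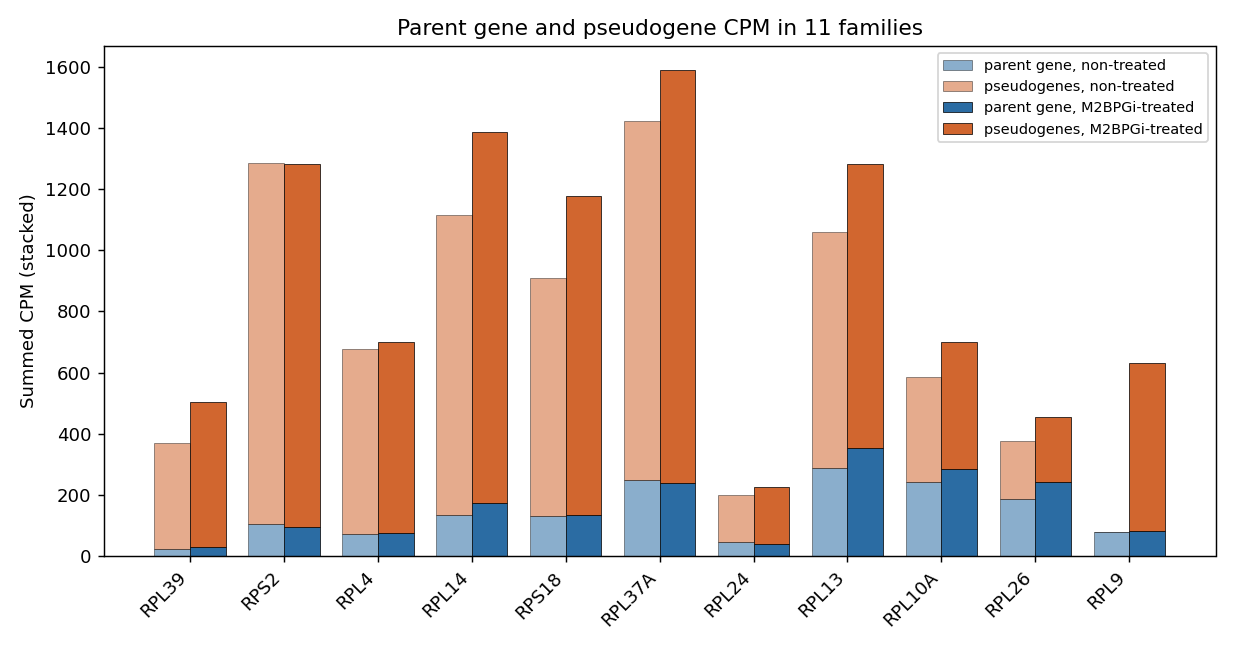
Stacked CPM of the parent gene (blue) and its pseudogenes (orange) in non-treated (pale, left bar) and M2BPGi-treated cells (dark, right bar) for 10 of the 12 families with at least 50% of the CPM on pseudogenes in non-treated cells, and for RPL9. The RPL9 sum is 79.7 CPM without and 631 CPM with treatment, with 82.3 CPM of the latter on RPL9 itself.

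Between the libraries, 4 members were higher in treated cells by at least 2-fold and 2 were lower by as much. This is on the scale of log2(CPM + 0.1), which understates differences of low genes. Of the 4, RPL18P13 (0.04 and 0.40 CPM) reached the mean of 0.2 CPM only through the treated library, where it is high. Over all 14436 genes with a mean of at least 0.2 CPM, 0.63% were higher by at least 2-fold and 1.77% lower. By counting error alone, the tag ratio interval lay above 0 for 34 members, below 0 for 5 and held 0 for 24, and over all genes it lay above 0 for 21.9% and below 0 for 30.5%. The median log2 ratio of the members was 0.28 (quartiles 0.01 and 0.56), with 48 members above 0 and 15 below. For all genes the median was -0.06. The parents had a median of 0.32, with 36 of 39 above 0 and none 2-fold apart, so both medians were above that of all genes. The 47 ribosomal protein genes without members had a median of 0.28. Without RPL9P7 the members' median remained at 0.28, and their summed CPM was 1.26-fold in place of 1.32-fold that of non-treated cells. The sum of the parents was 1.27-fold.

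Other pseudogenes had lower medians. Processed pseudogenes with neither a symbol nor an annotated name of the members' form numbered 597 at the same mean. They had a median log2 ratio of 0.05, with 12 higher by at least 2-fold and 29 lower. Copies of ribosomal protein genes that were found by sequence were among them, and the 534 without those had a median of 0.03. A list of pseudogenes of other abundant genes, such as elongation factor and keratin genes, had 23 of 84 at this mean and a median of 0.04, with 0 at least 2-fold higher and 1 lower. The 18 other TOP genes, which encode elongation and initiation factors and also proteins of other roles such as NPM1 and VIM, had a median of 0.10 with 14 above 0. Of these, EIF4B alone, an initiation factor that aids the unwinding of mRNA, was past 2-fold, at 29.3 and 10.9 CPM.

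**Figure D3:**
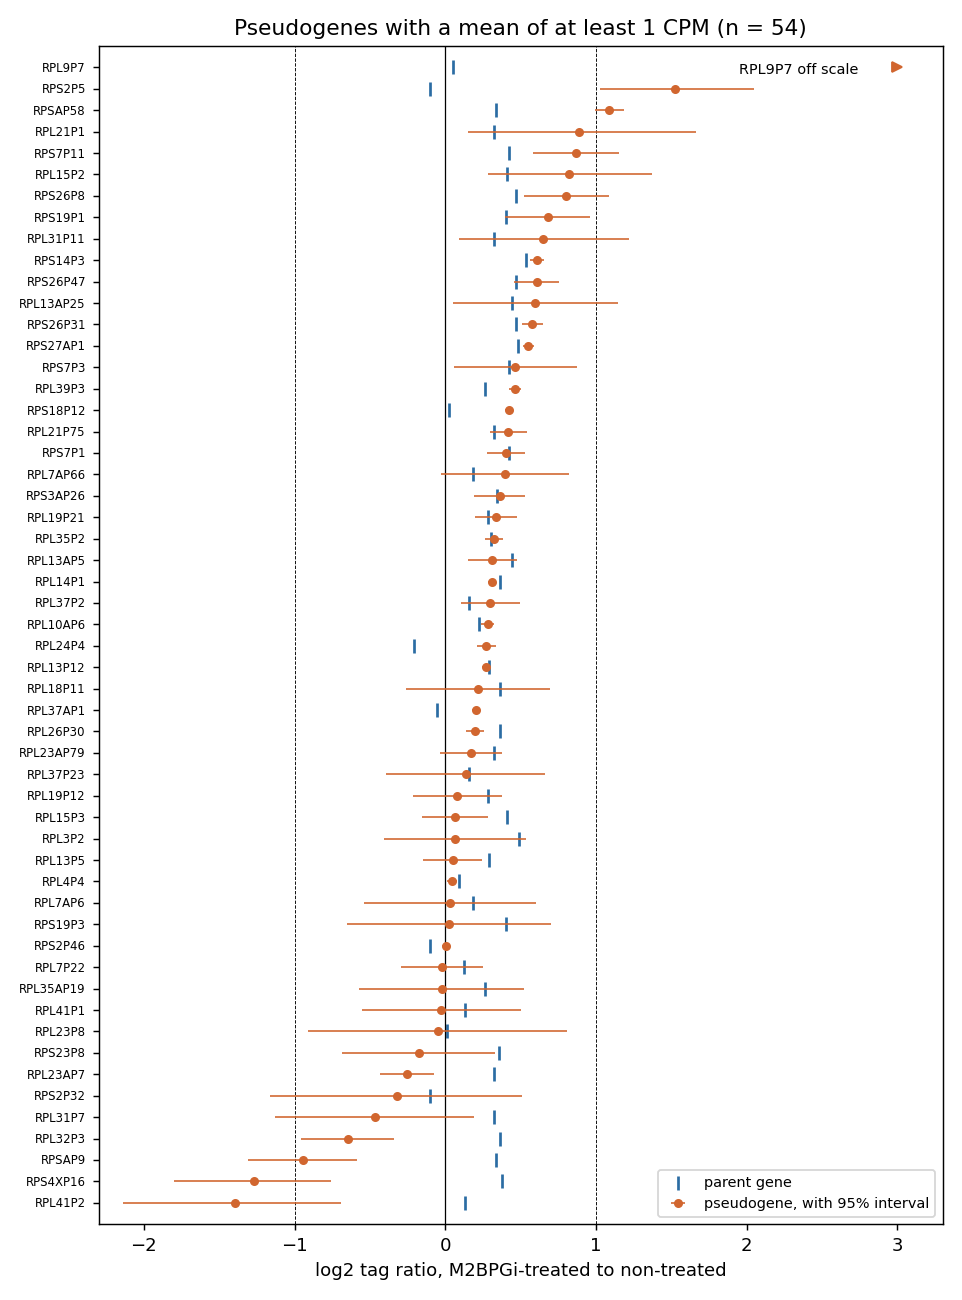
Log2 tag ratio, treated over non-treated, for 54 of the 57 members with a mean of at least 1 CPM (orange points, 95% Clopper-Pearson intervals) and log2(CPM + 0.1) ratio of their parents (blue ticks), with dashed lines at 2-fold. RPL9P7, at 9.84 as log2(CPM + 0.1) ratio, is off the scale, and many other members sit near their parent's tick with wider intervals at low levels.

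RPL9P7 had the highest ratio of all members. RPL9 encodes a large-subunit protein near the factor-binding site of the ribosome, and this copy lies on the X chromosome at chrX:23836742-23837321 on the minus strand, inside APOO, a gene for a protein of the inner mitochondrial membrane. Tags on RPL9P7 numbered 12 in non-treated and 13641 in treated cells, 0.50 and 549 CPM. The log2 ratio was 9.84, with a tag ratio interval of 9.30 to 11.06. RPL9 itself had 79.2 and 82.3 CPM, and APOO had 42.6 and 47.7 CPM, so neither the parent nor the surrounding gene differed likewise. The summed CPM of RPL9 and its copy was the lowest of the 39 families in non-treated cells (79.7 CPM) and the 14th from the lowest in treated cells (631 CPM). RPL9P7 is 99.7% identical to the coding sequence of RPL9 and is the second closest of its 17 annotated copies. The closest, RPL9P9, is not among the listed genes. The first 90 bases of the coding sequence, at chrX:23837231-23837320 in the pseudogene, are the same in both genes and hold no capitals.

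RPL9P7: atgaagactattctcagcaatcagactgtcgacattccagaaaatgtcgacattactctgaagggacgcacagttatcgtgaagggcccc
RPL9: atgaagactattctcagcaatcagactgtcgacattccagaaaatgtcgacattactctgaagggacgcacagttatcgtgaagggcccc

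RPSAP58 was the other member at a high level past 2-fold, with 53.6 CPM without and 114 CPM with treatment (tag ratio interval 0.99 to 1.19). Its parent RPSA, a small-subunit protein also known as the laminin receptor, had 310.2 and 392 CPM. The other member copied from RPSA, RPSAP9, differed in the opposite direction, at 7.74 and 4.02 CPM. RPS2P5 had 1.87 and 5.39 CPM, 45 and 134 tags, while RPS2 and RPS2P46 were nearly level. RPL18P13 rested on 1 and 10 tags (interval 0.46 to 8.71) and is among the members nearest to the threshold.

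Just short of 2-fold higher were RPS7P11 at 6.49 and 11.8 CPM, RPS26P8 at 6.82 and 11.9 CPM and RPL21P1 at 24 and 46 tags. Their parents, which encode small-subunit proteins S7 and S26 and large-subunit protein L21, had log2 ratios of 0.43, 0.47 and 0.32. For all 3 copies the tag ratio interval lay above 0. The difference from the parent exceeded counting error for RPS7P11 (0.44, 0.16 to 0.72) and RPS26P8 (0.33, 0.05 to 0.61) but not for RPL21P1 (0.57, -0.15 to 1.28).

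The members furthest below their non-treated value were at low levels. RPL41P2 had 2.54 and 0.97 CPM, 61 and 24 tags, while RPL41, which encodes the smallest ribosomal protein, had 1651 and 1806 CPM. RPS4XP16 had 4.45 and 1.85 CPM against 161 and 209 CPM for RPS4X. It lies inside the antisense gene INTS6-AS1, which had similar values of 4.58 and 2.17 CPM. These were the 2 members at least 2-fold lower. RPL32P3 had 9.19 and 5.87 CPM while RPL32 had 146 and 187 CPM. The only member annotated as an unprocessed copy, it shares no exact run of 50 bases with the parent transcript.

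RPL31P7 had 48 and 36 tags and RPS2P32 29 and 24 tags, and both ratios were within counting error. RPL31P7 is a copy at low level with an identity of 91.5%, while RPS2P32 had 87.3%. The first 90 bases of RPL31P7, at chr17:80602837-80602926 on the minus strand, differ from those of RPL31, a protein at the rim of the exit tunnel, in the 10 bases given in capitals, whereas RPL39P3 and RPL9P7 have none.

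RPL31P7: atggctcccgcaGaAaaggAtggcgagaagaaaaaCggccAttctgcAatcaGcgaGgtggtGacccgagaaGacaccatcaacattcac
RPL31: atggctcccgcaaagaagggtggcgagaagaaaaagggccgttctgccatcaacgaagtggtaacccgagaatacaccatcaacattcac

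Set against the parent's own ratio, the median difference was -0.02 on the log2 scale. It exceeded counting error upwards for 14 members and downwards for 13, and the interval held 0 for 36. At high levels, RPL24P4 exceeded RPL24 by 0.48 (0.34 to 0.62), RPS18P12 exceeded RPS18 by 0.40 (0.32 to 0.47) and RPL37AP1 exceeded RPL37A by 0.26 (0.20 to 0.31). RPL37A itself was at -0.06, or 0.00 with a pseudocount of 1 CPM and libraries rescaled to a median of 0 over all genes. RPL24 had 45.6 and 39.5 CPM beside 154 and 186 CPM for its copy. RPL14P1, RPL13P12, RPL4P4 and RPL10AP6 differed from their parents by no more than counting error. RPSAP58 exceeded RPSA by 0.75 (0.65 to 0.85). The lowest differences at a mean of at least 5 CPM were -1.28 (-1.64 to -0.93) for RPSAP9, -1.01 (-1.32 to -0.70) for RPL32P3 and -0.58 (-0.75 to -0.40) for RPL23AP7, at 22.8 and 19.2 CPM. RPL23AP7 is annotated as a transcribed pseudogene with a transcript of 2078 bases. Of its runs of 27 bases, 2.38% are found exactly in the RPL23A transcript.

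As shares, the pseudogene part of the family CPM had intervals that were apart between libraries in 13 families, higher in treated cells in 8 and lower in 5. Only 3 families differed by more than 5 percentage points, all upwards. They were RPL9, from 0.626% to 87.0%, RPSA, from 16.5% to 23.1%, and RPL24, from 77.2% to 82.5%.

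Sequence was read for the 61 members that GENCODE v29 holds by identifier, all but RPSAP58 and RPS7P1. Of these, 53 were annotated as processed pseudogenes, 7 as transcribed processed and 1 as transcribed unprocessed. Identity to the parent's coding sequence, over the aligned bases only, had a median of 96.2%, from 68.2% to 100%, and 24 members had at least 98%. The aligned part was short for some members at either end. RPL7P22, the lowest, aligned over 25.5% of the RPL7 coding sequence and shared no exact run of 27 bases with the parent transcript. RPL3P4, at 99.5% identity, aligned over 34.7% of the RPL3 coding sequence. Identity was higher among members at higher levels. The 17 members of at least 100 CPM had a median of 98.3%, the 10 between 10 and 100 CPM 97.4% and the 34 under 10 CPM 95.4%. The 54 pseudogenes listed at 0 had a median of 91.3%, and the 913 annotated copies that are not among the listed genes 87.9%. The share of windows of 50 bases found exactly in the parent transcript had medians of 37.5%, 38.1% and 12.8% in the 3 groups of members. Members of a family share their source sequence, and these medians are given with no test.

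Closeness within the family was distributed unevenly as well. The member with the most CPM was the closest of all annotated copies in 10 of the 12 families with shares of at least 50%. Counting members alone, it was so in 6 of the other 27. Closeness was ranked by the percent of the coding sequence with identical bases, and ties for the first place counted as closest. Among members, RPS2P46 was tied with RPS2P5 (98.7%), RPS19P1 with RPS19P3 (94.7%) and RPL41P1 with RPL41P2 (100%). The highest members of RPSA and RPS7, RPSAP58 and RPS7P1, had no sequence and could not be ranked. Both families are among the 27 and neither is among the 6. In some of the 27, RPL7 and RPL32 among them, a listed copy under another name was higher than the highest member and close to the parent. For these 2 families it was RPL7P23p at 98.5% identity and AC004453.8 at 98.3%. The same held for RPL12 (RPL12L3, 97.2%), RPL41 (AC138123.2, 100%) and, by mean CPM, RPS26 (AC068522.4, 98.3%). Not every such family is named here. The exceptions among the 12 were RPL24P4, the 4th of 4 copies, which covers 81.5% of the coding sequence, and RPL26P30, the 10th of 14. RPL26P30 had 188 and 215 CPM but an identity of 83.2% and no exact run of 27 bases in common with the RPL26 transcript. It is annotated as a transcribed pseudogene inside CD81-AS1, with a transcript of 1178 bases. A close match did not always go with a high level: RPL41P1 was 100% identical to the coding sequence of RPL41 and had 2.58 and 2.53 CPM.

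**Figure D4:**
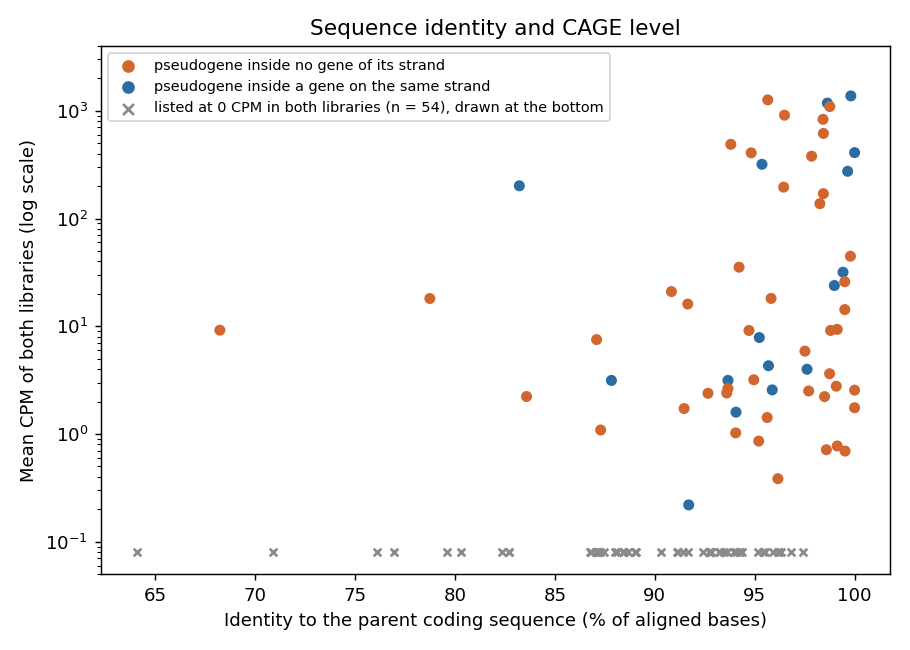
Identity to the parent coding sequence in percent of aligned bases (horizontal) against the mean CPM of both libraries on a log scale (vertical) for 61 members, in blue where they lie inside another gene on the same strand, and for the 54 pseudogenes listed at 0 (grey crosses at the bottom). Members above 100 CPM lie at 93.8% identity or more with the exception of RPL26P30 at 83.2%.

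A start with C and 4 further pyrimidines, as in TOP mRNAs, was annotated for a transcript of 23 of the 39 parents (59.0%), against 10.4% of 11568 coding genes. It was found in 2 members. The annotated transcript of 44 of the 61 members begins at the base that matches the parent's start codon, so the bases before it, where the 5′ ends of a parent's RNA lie, are not part of these annotations.

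Inside another gene on the same strand lay 16 of the 61 members, and 12 of these members had a surrounding gene that was listed. Tags of such members and of the surrounding gene cannot be told apart where they overlap. RPL18P11 had 2.91 and 3.38 CPM and so did CHRNB4, a subunit of the nicotinic acetylcholine receptor around it. RPL37P23, at 2.45 and 2.69 CPM, likewise had the values of the non-coding gene around it. At high levels the values differed: RPS14P3 had 252 and 385 CPM while MINOS1, the highest of the genes around it, had 422 and 472 CPM.

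Copies of ribosomal protein genes are also listed under names that the choice did not cover. By annotated name or by sequence, 98 further copies had a mean of at least 0.2 CPM, with a median log2 ratio of 0.31, 73 above 0 and 25 below, 3 at least 2-fold higher and 1 lower. Together they had 9407 CPM without and 13280.0 CPM with treatment, about as much as the 63 members. RP11-475C16.1, a copy of RPL27A, had 1788 and 2502 CPM, more than any member, and AC004453.8, a copy of RPL32, had 1022 and 1487 CPM beside 9.19 and 5.87 CPM for RPL32P3. Both names were picked for their values.

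With these copies added, the genes at low levels were set beside the sum of their copies. Splitting the genes by their own CPM favours copies that exceed the gene on the low side, so the counts are a description only. Among 79 ribosomal protein genes, 23 were under 200 CPM in non-treated cells, a limit set after the values were seen, and in 19 of these the copies together exceeded the gene. RPL9, RPS4X and RPS3A were among the exceptions. Of the other 56 genes, copies exceeded 3, namely RPL10A, RPL37A and RPL13. The median over the 79 genes was 481 CPM (quartiles 162 and 989) for the genes alone and 780.3 CPM (463 and 1290) with all copies. All copies together took 24.0% of the ribosomal protein CPM in non-treated and 25.7% in treated cells.

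**Figure D5:**
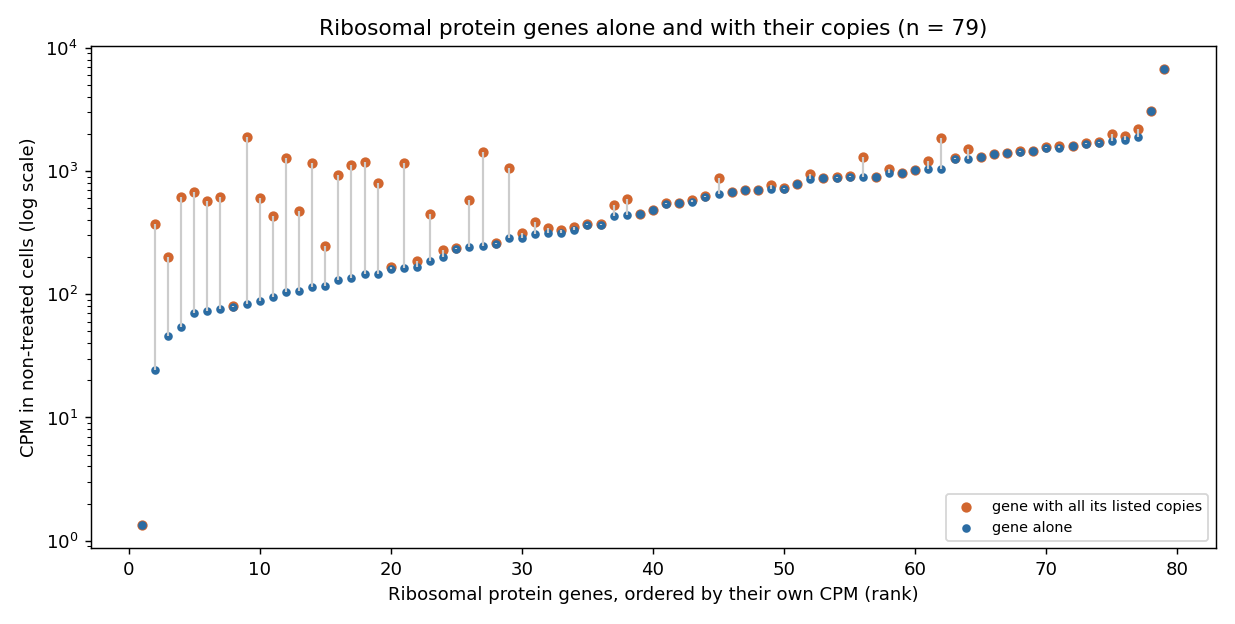
CPM of 79 ribosomal protein genes in non-treated cells on a log scale, alone (blue) and with all their listed copies (orange), in order of their own CPM. Grey lines are long for most genes under 200 CPM and short for most genes above it, and RPL9 is among the exceptions.

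At the limit of 0.2 CPM, the members just inside were RPL18P13 with 0.04 and 0.40 CPM, RPL10AP2 with 0.29 and 0.48 CPM and RPL3P4 with 0.83 and 0.56 CPM. Their parents encode large-subunit proteins, among them RPL3 at the peptidyl transferase centre, and had 721 and 929.7 CPM (RPL18), 244 and 284 CPM (RPL10A) and 701 and 985 CPM (RPL3). Just outside were RPS4XP3 with 0.08 and 0.16 CPM, RPL21P5 with 0.04 and 0.16 CPM and RPL37AP8 with 0.08 CPM in both. These members rest on 1 to 20 tags per library, and 3 tags correspond to 0.125 and 0.121 CPM.

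All 10 hepatocyte and hepatoma genes were listed, with a sum of 2636 CPM without and 1977 CPM with treatment. The most abundant were FGB, a fibrinogen chain, at 950.0 and 623 CPM and AFP, the fetal serum protein alpha-fetoprotein, at 695 and 566 CPM. In treated cells 7 of the 10 were lower and 3 higher, among the latter APOA2, an apolipoprotein, at 241 and 261 CPM and HNF4A, a liver transcription factor, at 39.1 and 43.8 CPM. ALB, APOA1, TTR and TF were at low levels, between 2.49 and 8.82 CPM. Of 5 fibroblast genes 2 were listed, with a sum of 5.20 and 4.18 CPM, most of it from COL3A1 at 4.53 and 3.42 CPM, while DCN, LUM and PDGFRB were not listed. Of 5 leukocyte genes, LYZ had 32.1 and 29.2 CPM, PTPRC was at 0 in both libraries and CD3E and CD14 were not listed. None of 4 endothelial genes (PECAM1, VWF, CDH5 and KDR) was listed. The part of the lower hepatocyte sum in the values of the pseudogenes was not tested.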

How the data were processed

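The authors deposited CPM per gene for 1 non-treated and 1 M2BPGi-treated CAGE library, rounded to 2 decimals. The submitters' processing notes name BWA, HISAT2 and hg19, while the methods of the study name a mouse genome although the identifiers are human. The treatment of tags that fit several places and the assignment of tags to genes are not given in the sources used here.

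Tag numbers were estimated from the CPM as whole multiples of the CPM of 1 tag (100% of values fitted within 0.005 CPM), a separate check of the units did not accept them as whole reads, and all intervals rest on them. The floor of 3 tags was 0.125 CPM in non-treated and 0.121 CPM in treated cells. The pseudocount was 0.1 CPM for log2 ratios, and Clopper-Pearson intervals (95%) were taken on tags without it. Intervals of the difference from a parent used a normal approximation. No test of the conditions was made with 1 library each. The computations were tested on simulated data.

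Parents were assigned by symbol. GENCODE v29 (GRCh38) gave sequences and annotation by gene identifier. Coding sequences were aligned locally with Biopython 1.88 (match 2, mismatch -3, gap opening -5, extension -2) in place of the planned BLAST. Copies under other names were taken by annotated name or at an identity of at least 85% over at least 50% of a parent's coding sequence. Python 3.11.15, scipy 1.17.1 and pandas 2.3.3 were used.

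The rule for names took the 12 members with the highest mean CPM, the 6 highest and 6 lowest ratios at a mean of at least 1 CPM, up to 6 members above their parent, 3 on each side of the threshold, their parents, and the 5 families with most members or highest shares. Some items that these rules select are not reported here. Any other name was picked for its values. The members and lists were chosen with earlier results of these data known. Alternatives were other pseudocounts, filters, scalings, thresholds and sets of members.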

Additional observations from a re-analysis of the deposited data

How the results depend on the processing

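The median log2 ratio of the members kept its sign under every alternative run. Of 39 alternatives for the counts, the median and the share, 27 gave values like those reported and 12 differed. The 4 members higher by at least 2-fold became 2 among the 29 members with a mean of at least 10 CPM. Of these 2, RPL9P7 (0.50 and 549 CPM) passed that mean only through the treated library. The 4 also became 2 among the 47 members left without the 16 annotated inside another gene on the same strand, and 13 at 1.5-fold. Of the 47, 2 have no annotated position, RPSAP58 among them. The 2 lower by at least 2-fold became 0 with a pseudocount of 1 CPM, 0 with a mean of at least 10 CPM, 1 without those 16 and 4 at 1.5-fold. The share of all genes past 1.5-fold is not given here, so the counts at that threshold are not read as particular to the members. With all copies under other names, an alternative chosen after seeing the data, 7 of 161 were at least 2-fold higher. The share of the family CPM in treated cells (29.5%) was 28.6% without RPL9P7, 20.7% without those 16, 8.97% as the median over families and 25.7% when all copies under other names were added and the sum was taken over all ribosomal protein genes in place of the 39 families. RPL9P7 thus decides whether the share is above or below the 28.7% of non-treated cells. Where fewer members were counted, lower counts follow by construction, and otherwise the cause was not tested.

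Rescaling to a median log2 ratio of 0 over all genes moved ratios by 0.06. Of 50 single genes, 23 stayed within their interval with a pseudocount of 1 CPM and rescaled libraries and 26 moved. RPL37A reversed, from -0.06 to 0.00 (0.0014), with both choices changed together, a move of the size of the shift of all genes. An exact binomial test with Benjamini-Hochberg adjustment, which compares the libraries and not the conditions, called 37 of 63 members where the intervals gave 39. Over all 14436 genes it called 6785 where the intervals gave 7560. Exact windows of 27 and 75 bases gave medians of 34.9% and 7.34% in place of 15.2%.

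Normalization factors on the tags and an exact test with an assumed variation were planned and not run, since a check of the units did not accept the recovered tags as whole reads. No paired analysis was possible because there is only 1 library of each condition.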

Other observations

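AC068522.4, a copy of RPS26 with 98.3% identity to its coding sequence, had 3.37 CPM without and 780.2 CPM with treatment, while RPS26 had 440.4 and 611 CPM. With copies under other names included, the pseudogene part of the CPM of RPS26 and its copies was 25.3% and 62.1%. RPS6, the small-subunit protein that S6 kinases phosphorylate, had 116 and 892 CPM, and its copy AD000092.3 had 129 and 158 CPM, so the part of the copy was 52.6% and 15.1%. Among RPL9, RPS26 and RPS6, the value far higher in treated cells was thus on a copy in the first 2 and on the gene itself in RPS6. These genes were picked for their values, and the cause was not tested.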
